A study of Mus musculus with 5 samples.

Results

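Genes of blood and iron were followed through 5 bulk RNA sequencing libraries of mouse brain hemispheres that carried a GL261 glioma. The 10 genes were chosen by name, out of 55573 in the count tables, as a readout of blood in the tissue and of the handling of its iron. They are the adult globins Hba-a1, Hba-a2, Hbb-bs and Hbb-bt, the heme genes Alas2 and Hmox1, the ferritins Fth1 and Ftl1, the iron exporter Slc40a1 and the transferrin receptor Tfrc. All 10 were found under their symbols and passed the filter on low counts, which left 23592 genes for testing. GL261 is a mouse glioma line; here it carried a luciferase/mKate2 vector and was inoculated into the right caudate nucleus-putamen of C57BL/6 females aged 7 to 8 weeks. Treatment on days 21 and 24 was inVivoPure pH 6.5 dilution buffer in the vehicle group (3 libraries) and ultrasound-mediated blood-brain barrier opening, or UMBO, in the other group (2 libraries). UMBO combines pulsed ultrasound with intravenous microbubbles under anesthesia, so that the oscillating bubbles stretch the vessel wall. Right hemispheres were collected 24 h after the last session, each from 1 mouse. Perfusion is described by the study for its flow cytometry mice and not for these. Anesthesia is described in general terms for the study's treatment protocols, and whether vehicle mice received microbubbles is not given in the sources used here. The labels describe 5 mice, whereas the study's text gives groups of equal size, so a further UMBO mouse may exist that was not analysed here.

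Red blood cells of the mouse carry hemoglobin, a tetramer of alpha and beta globin chains that each hold a heme group. Mature red cells have no nucleus, but young circulating ones, the reticulocytes, still hold globin and Alas2 transcripts, and low levels of globin transcripts are also known from neurons and glia. When red cells leave the vessel, macrophages and microglia take up hemoglobin and heme, Hmox1 opens the heme ring and frees iron, ferritin stores it and Slc40a1 (ferroportin) exports it. Cells sense free iron through iron regulatory proteins, which bind a hairpin called the iron-responsive element. Bound in the 5′ UTR of a ferritin, ferroportin or Alas2 transcript, they block its translation, and bound in the 3′ UTR of Tfrc they protect the transcript from decay. Less Tfrc transcript is therefore the known answer to more iron, whereas ferritin protein can change without its transcript.

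The hairpins are shown because several members are known to be regulated through them. A search of GENCODE M21 transcripts (mouse GRCm38) for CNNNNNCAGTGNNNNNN, with the 5 bases before the loop paired to the last 5 and G-T pairs allowed, matched a UTR in 0.916% of 16382 protein-coding genes tested. It matched 5 of the 10 members. Alas2, Fth1, Ftl1 and Slc40a1 each held 1 match in the 5′ UTR, and Tfrc held 4 in the 3′ UTR. In the sequences, written 5′ to 3′ on the strand of the gene, capitals mark the 6-base loop. They lie at chrX:150547459-150547485 (plus strand) for Alas2, chr19:9982733-9982759 (plus) for Fth1, chr7:45459780-45459806 (minus) for Ftl1 and chr1:45925466-45925492 (minus) for Slc40a1. The 4 of Tfrc lie at chr16:32631220-32631246, chr16:32631599-32631625, chr16:32631664-32631690 and chr16:32631711-32631737 (plus), in the order given.
Alas2: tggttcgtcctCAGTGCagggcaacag
Fth1: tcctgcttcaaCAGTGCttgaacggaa
Ftl1: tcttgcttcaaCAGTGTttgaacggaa
Slc40a1: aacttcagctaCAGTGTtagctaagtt
Tfrc 1: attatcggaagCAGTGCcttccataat
Tfrc 2: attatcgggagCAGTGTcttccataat
Tfrc 3: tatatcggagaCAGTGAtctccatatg
Tfrc 4: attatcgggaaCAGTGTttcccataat
The globin genes and Hmox1 held no match, which says only that these letters are not in their annotated UTRs.

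The globin copies are shown because their reads are hard to tell apart. Hba-a1 (chromosome 11, 32283511 to 32284465) and Hba-a2 (32296489 to 32297298) differ at 1 of 426 coding bases, and Hbb-bs (chromosome 7, 103826534 to 103828096) and Hbb-bt (103812524 to 103813996) at 1 of 441. Counted from the A of the start codon, the substitutions are C381T between the alpha genes and C417T between the beta genes, each in exon 3. In the stretches of 41 bases around them, at chr11:32284323-32284363 and chr11:32297140-32297180 (plus strand) and at chr7:103826672-103826712 and chr7:103812663-103812703 (minus strand), the differing base is in capitals.
Hba-a1: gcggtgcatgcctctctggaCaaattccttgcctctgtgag
Hba-a2: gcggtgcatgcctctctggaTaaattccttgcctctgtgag
Hbb-bs: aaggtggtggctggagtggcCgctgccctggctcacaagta
Hbb-bt: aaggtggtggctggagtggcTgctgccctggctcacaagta
Of all windows of 100 bases in the transcript of Hba-a1, 56.5% were also found in Hba-a2, and the other way round 74.5%. The shares were 62.6% for Hbb-bs and 54.8% for Hbb-bt. How the authors' counting treated reads that fit both copies is not given in the sources used here, so the split within each pair is uncertain. The sums do not depend on how such reads were divided between copies. If such reads were left out, the sums and the globin levels per kilobase would be too low. The factor between beta and alpha would then be uncertain too.

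The total count lay between 59736771 and 86164159 per library. UMBO replicate 2 stood apart, with a root mean square difference of 0.839 to 1.34 on the log2 CPM scale from the other libraries, which differed from each other by 0.49 to 0.694. It also had the lowest total count and the lowest share of mitochondrial reads, at 3.36% against 5.29 to 6.61% in the other libraries. CPM here are counts per 1000000 reads after TMM scaling. Between UMBO and vehicle, 0 of 23592 genes passed edgeR's quasi-likelihood test at an adjusted p under 0.05, where DESeq2 called 39, or 0.168%. At an unadjusted p under 0.05 edgeR gave 1738 genes, or 7.37% of those tested (5.3% higher and 2.06% lower with UMBO). None of the 10 members passed the adjusted test in edgeR or DESeq2, so the differences below are values and not calls. A fit with the replicate number as a block called 6 members and 9.91% of all genes, but the labels do not say that the numbers pair mice. The unadjusted p was under 0.05 for 2 members, Hmox1 and Ftl1, both higher with UMBO. Of the members 9 had a positive log2 fold change, as had 50.9% of all genes, and 1, Tfrc, a negative one. Their median was 0.59, against 0.01 over all genes tested. The members are not 10 independent values, since 4 are adult globins in pairs of near copies. The median lay between the log2 fold changes of Hbb-bt (0.57) and Hbb-bs (0.62). Without vehicle replicate 1 the median of the members was 0.32.

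**Figure D1:**
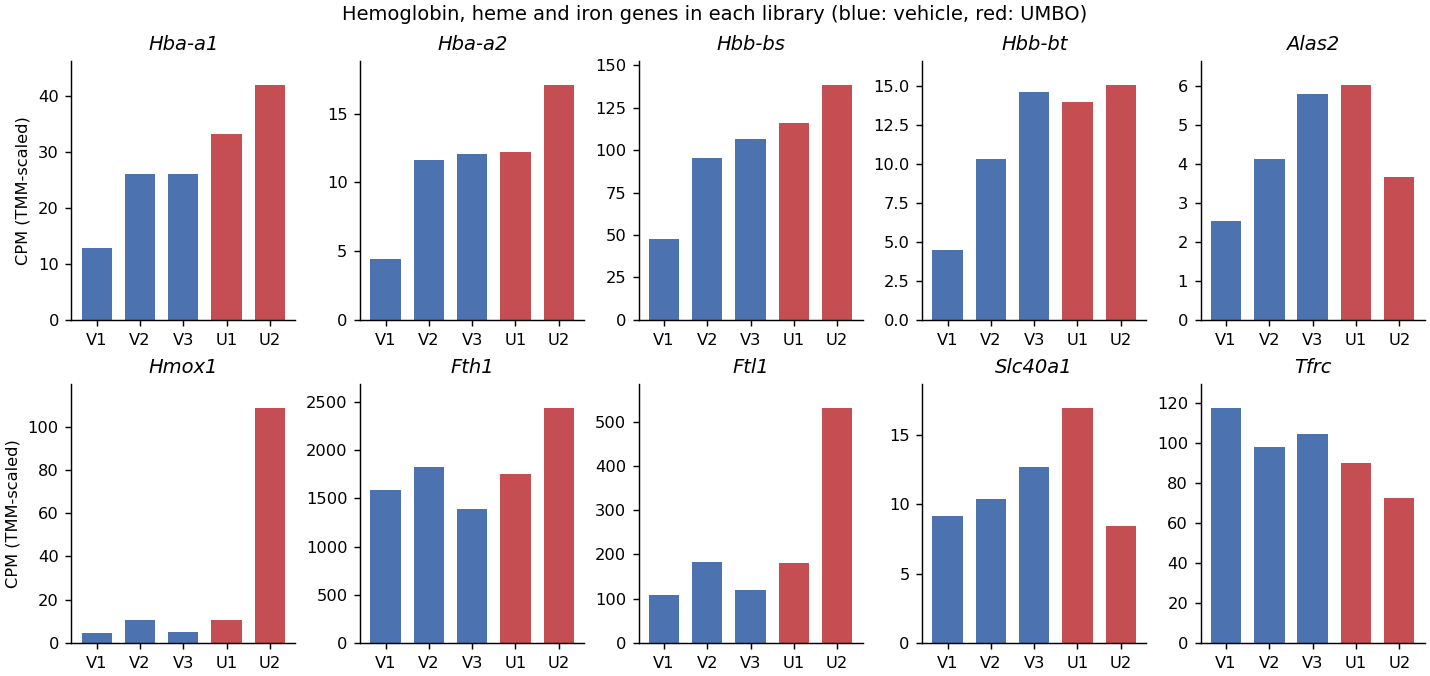
TMM-scaled CPM of each of the 10 genes (y axis, from 0, scaled per gene) in vehicle replicates 1 to 3 (V1 to V3, blue) and UMBO replicates 1 and 2 (U1 and U2, red). V1 is lowest for the 4 globins, and U2 is far above the rest for Hmox1 (109 CPM) and Ftl1 (532 CPM).

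Levels of different genes were compared per kilobase of annotated exon. In the vehicle libraries the ferritin heavy chain Fth1 was highest, at 462 ± 61.7 CPM per kb (SD, n = 3), followed by Hbb-bs at 108 ± 40.7 and the ferritin light chain Ftl1 at 103 ± 30.3, which did not differ beyond their spread. Hba-a1 was at 26.7 ± 9.35, Tfrc at 17.3 ± 1.60, Hba-a2 at 14.0 ± 6.43 and Hbb-bt at 14.0 ± 7.22 CPM per kb (SD, n = 3). The SD of Hba-a1 was as wide as its distance from Tfrc, and Tfrc, Hba-a2 and Hbb-bt lay within the spread of each other. The lowest were Hmox1 at 3.83 ± 1.87, Alas2 at 1.73 ± 0.678 and Slc40a1 at 1.19 ± 0.197, of which Alas2 and Slc40a1 were not separated by their spread.

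When the adult globins were summed, the UMBO libraries held the highest levels. The sum was 69.3, 143 and 159 CPM in vehicle replicates 1 to 3 and 175 and 213 CPM in UMBO replicates 1 and 2. Vehicle replicate 1 was low, at less than any other library, and the gap between vehicle replicate 3 and UMBO replicate 1 was small beside the range within the vehicle group. Means were 124 ± 47.9 (SD, n = 3) and 194 ± 26.6 CPM (SD, n = 2), a log2 ratio of 0.65, which was 0.36 without vehicle replicate 1.

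Hbb-bs, the main beta chain, gave most of this sum. It was at 47.5, 95.3 and 106 CPM with vehicle and at 116 and 139 CPM with UMBO, so the groups did not overlap. The log2 fold change was 0.62 (standard error 0.357, unadjusted p = 0.136 and adjusted p = 0.497 in edgeR), and it was 0.34 without vehicle replicate 1. Its copy Hbb-bt was at 4.51, 10.3 and 14.6 CPM with vehicle and at 14.0 and 15.1 CPM with UMBO. Here vehicle replicate 3 lay above UMBO replicate 1, and the log2 fold change was 0.57 (standard error 0.469, adjusted p = 0.546 in edgeR), or 0.22 without vehicle replicate 1.

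Hba-a1, the alpha chain gene with more reads, was at 12.9, 26.0 and 26.1 CPM with vehicle and at 33.2 and 42.0 CPM with UMBO. Its groups did not overlap either, and it had the largest log2 fold change of the 4 globins at 0.80 (standard error 0.338, unadjusted p = 0.0567 and adjusted p = 0.497 in edgeR). Hba-a2 was at 4.41, 11.6 and 12.04 CPM with vehicle and at 12.2 and 17.1 CPM with UMBO. UMBO replicate 1 was thus barely above vehicle replicate 3, and the log2 fold change was 0.65 (standard error 0.456, adjusted p = 0.51 in edgeR), or 0.31 without vehicle replicate 1.

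In total 4 members (Hba-a1, Hba-a2, Hbb-bs and Hmox1) lay above the whole vehicle group in each UMBO library, as did 11.5% of all genes tested. Of these 4, Hba-a1 and Hba-a2 are copies that can share reads. With scaling by library size only there were 3, without Hmox1, against 13.8% of all genes.

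The makeup of the globin reads varied little between libraries. Hba-a1 took 70.7 ± 3.33% of the alpha reads with vehicle (SD, n = 3) and 72.1 ± 1.44% with UMBO (SD, n = 2). Hbb-bs took 89.8 ± 1.75% and 89.7 ± 0.658% of the beta reads. Per kilobase, beta exceeded alpha by a factor of 3.00 ± 0.184 with vehicle and 2.75 ± 0.197 with UMBO.

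The sum of endothelial genes was, as that of the globins, highest in the UMBO libraries. The summed level of 10 endothelial markers, which include the tight junction gene Cldn5 and the adhesion gene Pecam1, was 188 to 262 CPM with vehicle and 322 to 366 CPM with UMBO, and vehicle replicate 1 was lowest here too. Of these 10 markers 6 had an unadjusted p under 0.05, all higher with UMBO, against 5.3% of all genes tested. None of the 10 was at 0 in any library, and their median log2 fold change was 0.64. Not all followed the sum: Slco1a4, a transporter of the blood-brain barrier, and Tek were lowest in UMBO replicate 2 (25.1 and 9.49 CPM), where the globins were highest, and Flt1 was highest in vehicle replicate 3. These 3 were named after their values were seen. Per endothelial CPM the globin sum was 0.368, 0.546 and 0.614 with vehicle and 0.545 and 0.581 with UMBO, so on this ratio the groups overlapped. The part of vessel content in the globin levels was not tested beyond this ratio, which was chosen after the values were seen. In bulk tissue, more cells of a type and more RNA per cell cannot be told apart.

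**Figure D2:**
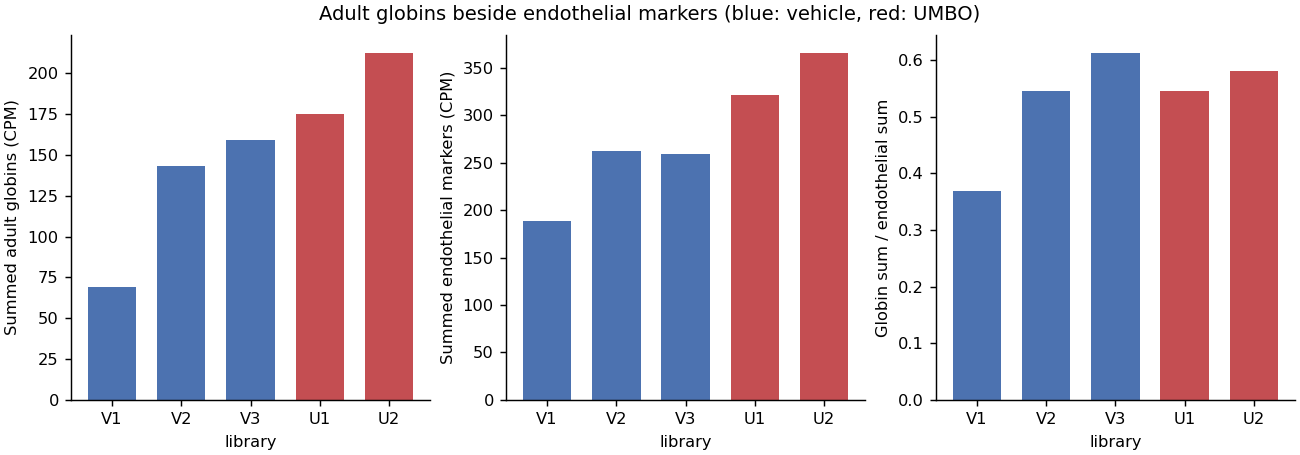
Summed CPM of the 4 adult globins (left), summed CPM of 10 endothelial markers (middle) and their ratio (right) in vehicle (V1 to V3, blue) and UMBO (U1 and U2, red) libraries. Each sum is highest in U1 and U2, whereas the ratio overlaps, with V3 highest at 0.614 and V1 lowest at 0.368.

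Other red cell genes were near the floor, so the label of blood in the tissue rests on the globins and, less firmly, on Alas2. Of 21 red cell markers found outside the members, 16 to 17 per library were under 1 CPM. The anion exchanger Slc4a1 (band 3) of the red cell membrane had 9 to 35 reads per library. The erythroid factor Gata1 had 0 to 9 reads. Slc4a1 did not follow the globins, at 0.120, 0.163 and 0.413 CPM with vehicle and 0.339 and 0.137 CPM with UMBO. The summed level of the list was 219 to 302 CPM with vehicle and 144 to 229 with UMBO. At least 90.4% of it came from Sptb, a beta spectrin found in red cells, and Bpgm, which makes bisphosphoglycerate. Sptb was at 223, 137 and 204 CPM with vehicle and at 153 and 53.3 CPM with UMBO, so it was lowest where the globin sum was highest. The part of other cells in its level was not tested, so the summed level cannot be read as red cell RNA alone. Of the 12 markers tested, 1 had an unadjusted p under 0.05, against 7.37% of all genes. The median log2 fold change of the 12 was 0.07, or -0.24 without UMBO replicate 2. The gene was Nfe2, a factor of the erythroid and platelet lineages, with 5 to 8 reads per vehicle library and 13 and 31 per UMBO library (log2 fold change 1.85, standard error 0.634, adjusted p = 0.497 in edgeR, and 0.83 without UMBO replicate 2). Next came the Rh antigen gene Rhd (log2 fold change 1.95, standard error 0.976, but -0.42 without UMBO replicate 2) and Sptb (log2 fold change -0.87, standard error 0.482, and -0.29 without UMBO replicate 2). Both had an adjusted p of 0.497 in edgeR, and Sptb overlaps an exon of Plekhg3 on the opposite strand.

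Alas2 encodes the first enzyme of heme synthesis in red cell precursors. It was at 2.55, 4.14 and 5.81 CPM with vehicle and at 6.05 and 3.66 CPM with UMBO. The groups overlapped, with UMBO replicate 2 below 2 of the vehicle libraries although its globin sum was the highest. The log2 fold change was 0.22 (standard error 0.431, adjusted p = 0.789 in edgeR) and changed sign, to -0.04, without vehicle replicate 1 and, to -0.22, without UMBO replicate 1. Alas2 reads came to 3.41 ± 0.451% of the globin reads with vehicle (SD, n = 3) and to 2.59 ± 1.22% with UMBO (SD, n = 2). Alas2 (chromosome X, 150547375 to 150570638) shares exonic bases with Apex2 on the opposite strand. Its level is uncertain, since the strand setting of the counting is not given in the sources used here.

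The other enzymes of heme synthesis showed no member with an unadjusted p under 0.05 among 8 tested, and a median log2 fold change of 0.13. Among those with the smallest p were Alad, an early enzyme (log2 fold change 0.53, standard error 0.302), and the last enzyme Fech, which inserts the iron (-0.33, standard error 0.302). Without UMBO replicate 2 the values of these genes were 0.01 and 0.04. The housekeeping form of the first step, Alas1, was named after its values were seen. It was at 43.6 to 50.9 CPM with vehicle and 50.9 to 51.8 CPM with UMBO.

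Hmox1, the inducible heme oxygenase, had the largest difference of the 10 genes, and 1 library carried it. Its level was 4.49, 10.5 and 5.17 CPM with vehicle and 10.5 and 109 CPM with UMBO. UMBO replicate 1 and vehicle replicate 2 were level, at 10.49 and 10.47 CPM, and their order turned with scaling by library size only (10.53 and 10.61 CPM). Between the groups the log2 fold change was 3.15 (standard error 0.917, unadjusted p = 0.0139 and adjusted p = 0.497 in edgeR, adjusted p = 0.0531 in DESeq2). Without UMBO replicate 2 it was 0.65. The constitutive form Hmox2, named after its values were seen, was at 61.3 to 79.1 CPM with vehicle and at 70.8 and 86.4 CPM with UMBO, so the ratio of Hmox1 to Hmox2 per kilobase was 0.0782 to 0.168 with vehicle, 0.188 and 1.59 in UMBO replicates 1 and 2. Hmox1 lies on chromosome 8 (75093621 to 75100589) and shares no exonic bases with another gene.

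Ftl1, the ferritin light chain, was at 108, 184 and 121 CPM with vehicle and at 181 and 532 CPM with UMBO. UMBO replicate 1 lay just below vehicle replicate 2, so the groups overlapped. The log2 fold change was 1.37 (standard error 0.484, unadjusted p = 0.0296 and adjusted p = 0.497 in edgeR), and 0.40 without UMBO replicate 2. Ftl1 has processed copies in the genome, and 3 of them held 124 to 973 reads per library against 8080 to 34834 for Ftl1 itself, most in the same library. It also shares exonic bases with Gm22133 on its own strand and Gm10252 on the other.

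Fth1, the ferritin heavy chain with the ferroxidase site, differed less. It was at 1586, 1822 and 1395 CPM with vehicle and at 1749 and 2442 CPM with UMBO. UMBO replicate 2 was again highest and UMBO replicate 1 lay inside the vehicle range, and the log2 fold change was 0.39 (standard error 0.303, adjusted p = 0.532 in edgeR), or 0.13 without UMBO replicate 2. Per kilobase, Fth1 exceeded Ftl1 5.67-, 3.83- and 4.47-fold with vehicle and 3.73- and 1.77-fold with UMBO, with UMBO replicate 2 the lowest.

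The sum of macrophage markers was ordered over the libraries as Ftl1 was. The summed level of 8 macrophage markers was 37.0, 141 and 61.8 CPM in vehicle replicates 1 to 3 and 117 and 469 CPM in UMBO replicates 1 and 2. This order differs from that of Hmox1 only in the pair that was level. Lyz2 gave 13.7, 65.0 and 28.9 CPM of the sum with vehicle and 60.3 and 294 CPM with UMBO. Taken singly, Lyz2, Arg1, Ms4a7 and Mrc1 had the order of Ftl1, whereas Cd68, Lyve1, Ccr2 and F13a1 did not. All 8 were tested and 2 had an unadjusted p under 0.05, against 7.37% of all genes tested (5.3% higher with UMBO). None of the 8 was at 0 in any library, and their median log2 fold change was 1.46, or 0.38 without UMBO replicate 2. The sum of 10 proliferation markers was 37.3 to 111 CPM with vehicle and 116 and 478 CPM with UMBO, and all 10 had an unadjusted p under 0.05, higher with UMBO. Their median log2 fold change was 2.17, or 0.77 without UMBO replicate 2. Microglia markers were at 407 to 579 CPM with vehicle and 749 and 855 CPM with UMBO, with 5 of 8 at an unadjusted p under 0.05. The part of these cells in the levels of Hmox1 and Ftl1 was not tested.

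**Figure D3:**
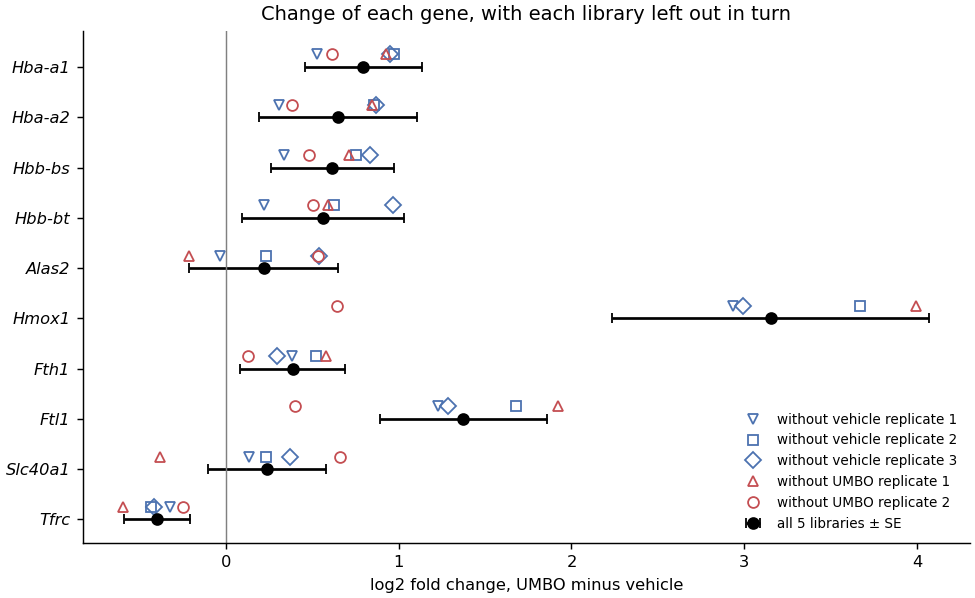
Log2 fold change of each gene between UMBO and vehicle (x axis). Black points with bars are the value and standard error from all 5 libraries, and open symbols the value with 1 library left out. For Hmox1 and Ftl1 the value without UMBO replicate 2 (0.65 and 0.40) lies far below the rest, for the globins the lowest is the one without vehicle replicate 1, and Alas2 and Slc40a1 fall on either side of 0.

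Among 12 other genes for the clearance of heme and hemoglobin, none had an unadjusted p under 0.05, and the median log2 fold change was 0.22, or -0.03 without UMBO replicate 2. The smallest p belonged to Nfe2l2, a factor that drives antioxidant genes such as Hmox1 and the ferritins. It was at 20.2, 31.1 and 24.0 CPM with vehicle and at 30.1 and 51.5 CPM with UMBO (log2 fold change 0.70, standard error 0.297, adjusted p = 0.497 in edgeR, and 0.26 without UMBO replicate 2). Haptoglobin (Hp), which binds free hemoglobin in plasma, had 15 to 47 reads per vehicle library and 27 and 137 in UMBO replicates 1 and 2. The biliverdin reductase Blvrb, which works downstream of heme oxygenase, was at 6.08 to 10.9 CPM with vehicle and at 7.36 and 20.4 CPM with UMBO. The log2 fold change of Hp was 1.58 (standard error 0.875), but -0.34 without UMBO replicate 2. That of Blvrb was 0.85 (standard error 0.493), but -0.06 without that library. Cd163, the macrophage receptor for hemoglobin bound to haptoglobin, was named after its values were seen. It was at 1.97 to 3.08 CPM with vehicle and at 3.17 and 1.82 CPM with UMBO, so UMBO replicate 2, the library with the most Hmox1, had the least Cd163.

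Tfrc, the receptor that takes up iron-loaded transferrin, was the only member with a negative log2 fold change. It was at 118, 98.3 and 105 CPM with vehicle and at 89.8 and 72.3 CPM with UMBO. Both UMBO libraries lay below every vehicle library, as they did for 11.4% of all genes tested (9.01% with scaling by library size only). The log2 fold change was -0.40 (standard error 0.193, unadjusted p = 0.0843 and adjusted p = 0.497 in edgeR) and ranged from -0.59 to -0.25 with each library left out in turn. Neuron markers were also lowest in UMBO replicate 2 and highest in vehicle replicate 1. Their summed level was 8718, 5716 and 6137 CPM with vehicle and 6074 and 2895 CPM with UMBO. Of the 8, none was at 0 in any library, none had an unadjusted p under 0.05, 4 lay below the whole vehicle group in each UMBO library, and the median log2 fold change was -0.41, or -0.17 without UMBO replicate 2. Their part in the level of Tfrc was not tested.

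Slc40a1, the only known iron exporter of mammalian cells, was at 9.18, 10.4 and 12.7 CPM with vehicle and at 16.96 and 8.41 CPM with UMBO. The UMBO libraries held both its highest and its lowest value. Its log2 fold change was 0.24 (standard error 0.342, adjusted p = 0.708 in edgeR), 0.66 without UMBO replicate 2 and -0.38 without UMBO replicate 1.

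Of 22 other genes for iron uptake, transport and regulation that were tested, 1 had an unadjusted p under 0.05, against 7.37% of all genes, and 11 lay on each side of 0 with a median log2 fold change of 0.07. The gene was Hjv (hemojuvelin), a coreceptor in the control of hepcidin that is best known from liver and muscle. It was at 1.15, 1.35 and 1.03 CPM with vehicle and at 0.456 and 0.443 CPM with UMBO, or 86 to 91 reads against 39 and 29. Its groups did not overlap and its log2 fold change was -1.38 (standard error 0.338, unadjusted p = 0.00647 and adjusted p = 0.497 in edgeR, adjusted p = 0.119 in DESeq2), with -1.36 without UMBO replicate 2. Hepcidin itself (Hamp) had 0 to 3 reads per library and was not tested.

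Steap3, which reduces iron inside endosomes so that it can leave them, followed at 6.15, 9.40 and 8.31 CPM with vehicle and 10.1 and 15.9 CPM with UMBO (log2 fold change 0.71, standard error 0.301, adjusted p = 0.497 in edgeR, and 0.35 without UMBO replicate 2). Transferrin (Trf), the plasma carrier of iron that oligodendrocytes and choroid plexus also make, was at 7.63, 17.8 and 8.23 CPM with vehicle and at 11.97 and 37.9 CPM with UMBO. UMBO replicate 1 lay inside the vehicle range, and the log2 fold change was 1.15 (standard error 0.58, adjusted p = 0.497 in edgeR), or 0.10 without UMBO replicate 2. Markers of the cells that make it were not highest in that library: the oligodendrocyte sum was 5513 CPM there against 5954 to 6359 CPM elsewhere, and the choroid plexus sum 735 CPM against 1333 to 1559 CPM. Trf shares exonic bases with Gm20425 on the same strand. The ferroxidase ceruloplasmin (Cp), named after its values were seen, was at 22.03 to 42.0 CPM with vehicle and at 31.9 and 69.4 CPM with UMBO.

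Outside adult hemoglobin, globins were at or near 0 or showed no low p. The embryonic genes Hba-x, Hbb-y, Hbb-bh1 and Hbb-bh2 each had 0 reads in at least 1 library. Of 4 genes tested, none had an unadjusted p under 0.05. Myoglobin (Mb), the oxygen store of muscle, was at 0.147 to 0.342 CPM with vehicle and 0.503 and 0.519 CPM with UMBO (log2 fold change 1.04, standard error 0.454, adjusted p = 0.497 in edgeR). Cytoglobin (Cygb) was at 62.7 to 71.3 CPM with vehicle and 55.6 CPM in both UMBO libraries (log2 fold change -0.27, standard error 0.155, adjusted p = 0.497 in edgeR). Mb and Cygb overlap exons of other genes on the opposite strand. The gene with the next smallest p, Hbq1a, had 12 to 30 reads per vehicle library and 11 and 18 per UMBO library.

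**Figure D4:**
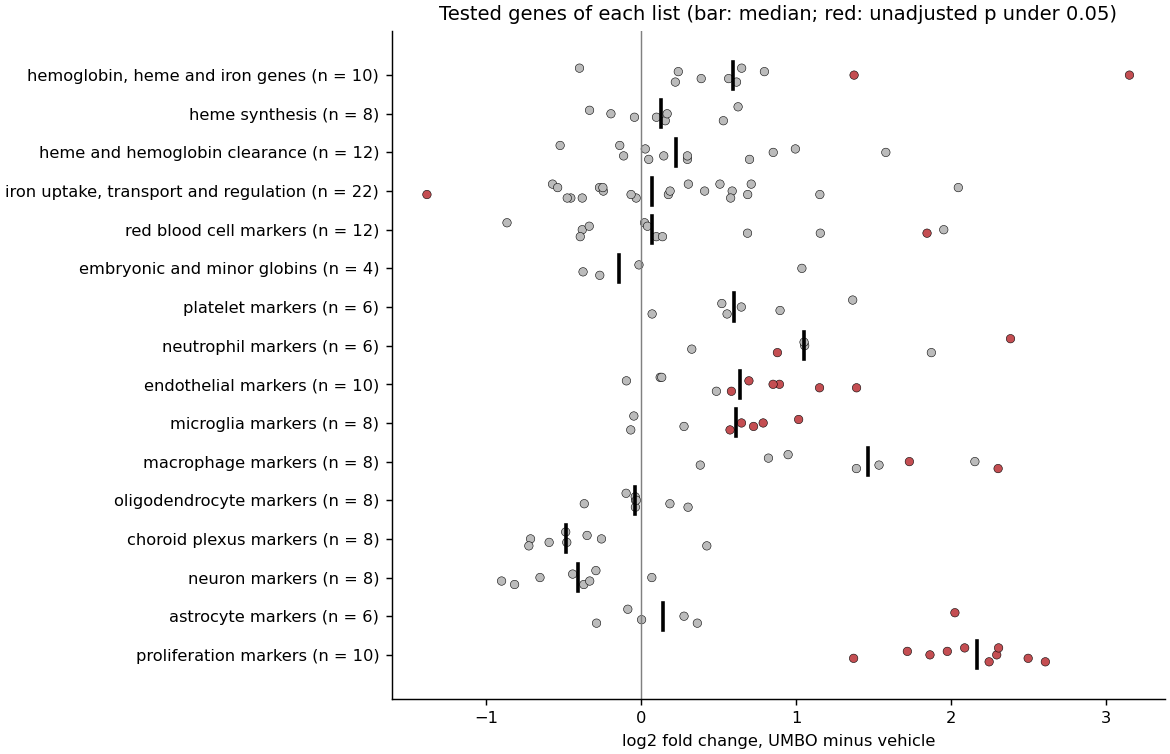
Log2 fold change between UMBO and vehicle (x axis) of each tested gene, by list, with the number tested in parentheses. Black bars are list medians and red points genes with an unadjusted p under 0.05. The lists for heme synthesis, heme clearance and iron handling lie around 0 (medians 0.13, 0.22 and 0.07), whereas endothelial, microglia, macrophage and proliferation markers lie above it (0.64, 0.61, 1.46 and 2.17) and choroid plexus and neuron markers below it (-0.48 and -0.41).

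Blood also carries platelets and leukocytes, whose markers were low. Platelet markers summed to 3.76 to 4.78 CPM with vehicle and 5.06 and 9.13 CPM with UMBO, and none of 6 tested had an unadjusted p under 0.05. Neutrophil markers summed to 11.2 to 18.4 CPM with vehicle and 24.6 and 32.4 CPM with UMBO. Of the 6 tested, 2 had an unadjusted p under 0.05, against 7.37% of all genes. The platelet receptor gene Gp1ba and the neutrophil surface gene Ly6g were at 0 in at least 1 library. Most of the difference in the neutrophil sum came from Csf3r, the receptor for the granulocyte growth factor. Over the libraries Csf3r was ordered as the microglia and endothelial sums were, and the part of other cells in its level was not tested. The other 9 neutrophil markers summed to 2.19 to 3.54 CPM with vehicle and 3.56 and 8.27 CPM with UMBO, so that UMBO replicate 1 was level with vehicle replicate 2. The astrocyte sum was 1703 to 2396 CPM with vehicle and 3434 and 2947 CPM with UMBO, with 1 of 6 genes at an unadjusted p under 0.05. That gene was Gfap, a filament protein of reactive astrocytes, at 214, 515 and 388 CPM with vehicle and 1396 and 1635 CPM with UMBO. Without it the groups overlapped, since the other 5 summed to 1489 to 2008 CPM with vehicle and to 2038 and 1312 CPM with UMBO, and UMBO replicate 2 was lowest. Gfap and Csf3r were singled out after their values were seen.

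Genes whose levels over the 5 libraries were most like those of a member were found by the root mean square distance between log2 CPM centered on the mean of the libraries. Over so few libraries many genes lie close to any given one, so the names are a description. Nearest to the globin sum, at 0.0447 to 0.0969, were the predicted genes Gm5626, Gm32647, Gm7628, Gm43579 and Gm45697, none above 1.42 CPM in any library. Hbb-bs and Hba-a1 lay at 0.0241 and 0.0897, and Alas2 at 0.413, where it ranked 2281 among 23588 genes. The genes nearest to Hmox1 were Mageb18, Gm37474 and Gm38197, at 0.205 to 0.219 and under 3 CPM, and Ftl1 was the nearest of the members, at 0.844. For Slc40a1 they were 4931429L15Rik, the metalloproteinase inhibitor Timp2 and the endothelial receptor gene Tek, at 0.0487 to 0.0635. Tek was at 10.5, 12.6 and 15.8 CPM with vehicle and at 18.9 and 9.49 CPM with UMBO, close to the levels of Slc40a1 in each library. For Tfrc the nearest were Wipf2, Scmh1 and Ppp1r21, at 0.0137 to 0.0288.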

How the data were processed

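The deposited values are raw read counts per Ensembl gene, which the authors made from alignments to GRCm38 (STAR, v2.7.2a), 1 table per library. The annotation release and strand setting are not given in the sources used here. Symbols were found for 55394 of 55573 genes (GENCODE M21, same build) and for 170 of 171 listed genes. Counts were scaled by TMM, filtered with filterByExpr and compared with edgeR 4.0.16 (quasi-likelihood test, R 4.3.3, Benjamini-Hochberg adjustment over all 23592 genes, threshold 0.05), using 3 vehicle and 2 UMBO libraries and no covariate. Standard errors are the log2 fold change over the square root of F. The scripts were tested on simulated data. Total counts (59736771 to 86164159) make counting error small except at a few reads. Precision is set by the spread between mice. The members and lists were chosen with earlier results of these data known. All members were named, with the 3 genes of smallest p in each pathway list, the 5 genes most like the globin sum and 3 each for Hmox1, Slc40a1 and Tfrc, and exceptions are marked. A gene that the rule names is not reported here. Alternatives were other scalings and filters, DESeq2 1.42.0, a replicate block and each library left out.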

Additional observations from a re-analysis of the deposited data

How the results depend on the processing

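With other scalings and filters edgeR still called 0 genes at an adjusted p under 0.05. DESeq2 called 39, and fits with 1 library left out called 0 to 4543, the latter without UMBO replicate 1, where the lone UMBO replicate 2 is assumed to vary like the vehicle group. Genes with an unadjusted p under 0.05 numbered 4100 without a filter, where 40435 were tested, 2738 in DESeq2, and 296 (without vehicle replicate 1) to 10165 (without UMBO replicate 1) with 1 library left out, with values of 2674, 432 and 455 for vehicle replicate 2, vehicle replicate 3 and UMBO replicate 2 in turn. Their split of 1251 higher to 487 lower became 217 to 215 without vehicle replicate 3 and 1502 to 395 with scaling by library size only, which put the median of all genes at 0.125. Among the members 0 (without vehicle replicate 1 or 3) to 4 (without UMBO replicate 1) had an unadjusted p under 0.05, and 1, Slc40a1, without UMBO replicate 2. Without UMBO replicate 1, Hmox1 and Ftl1 each had an adjusted p of 0.039 in edgeR. With 1 library left out, Alas2 ranged from -0.22 to 0.54 and Slc40a1 from -0.38 to 0.66. The sign turned for Alas2 without vehicle replicate 1 (-0.04) and without UMBO replicate 1, and for Slc40a1 without UMBO replicate 1. Of 120 values of members under alternatives, 109 kept their direction and their side of the threshold. The median of the members ranged from 0.32 to 0.85 and the log2 ratio of the globin sum from 0.36 to 0.87 with 1 library left out, and the replicate block gave a median of 0.96. In the replicate block fit, 2337 genes passed at an adjusted and 6134 at an unadjusted p under 0.05. The 6 members among both were the 4 globins, Hmox1 and Ftl1 (adjusted p 0.0011 to 0.022 in edgeR). Nothing in the labels ties equal numbers to 1 litter or day. Deviations from the group means correlated at 0.453 and 0.76 for the 2 numbers that both groups have. With 2 UMBO libraries, the deviations of those libraries are equal and opposite for each gene. The correlations therefore cannot show whether equal numbers pair mice. The causes of these shifts were not tested.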
